A study of Mus musculus with 4 samples.

Results

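This account covers 39 genes of the type I interferon response, taken by symbol out of the 26214 gene symbols counted in each library. They come from a fixed list that was chosen with earlier results of these data known. All 39 were found and passed the filter on low counts, as did 16196 genes in all. The RNA came from inguinal white fat of mice, from its stromal vascular fraction (SVF). One group, MHE, received a medicinal herb extract (2 libraries), and the other, PBS, received phosphate-buffered saline (2 libraries). The SVF is the pellet of digested fat after floating adipocytes are taken off, and progenitors, vessel cells and immune cells make it up. The labels call the libraries of a group biological replicates and say nothing of pooling. They do not give the strain, age, diet or genotype of the animals, or the composition, dose and duration of the extract. The deposited files of each group are named with a code of their own that no label explains, and whatever else it may mark cannot be told apart from the extract. The comparison asks how these transcripts differed between extract and saline.

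Libraries held 27161882 to 33391075 counts, and each of the 39 genes had 34 to 5783 counts in a library. Markers of the labelled fraction were present in every library, with the pan-leukocyte gene Ptprc at 34.8 to 526 CPM (counts scaled to library size with TMM factors), the endothelial gene Pecam1 at 285 to 447 and the progenitor gene Pdgfra at 54.2 to 118. The adipocyte hormone gene Adipoq, which this fraction should largely lack, stood at 2075 and 1462 CPM with MHE and at 3172 and 4230 CPM with PBS. Bulk RNA was measured throughout, so more cells of a type and more RNA per cell cannot be told apart.

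Type I interferons bind a receptor made of the Ifnar1 and Ifnar2 chains. The receptor's kinases act on STAT factors, which join Irf9 in a complex that binds the interferon-stimulated response element (ISRE) in promoters of the stimulated genes. Those genes encode effectors that restrict viruses, sensors that detect foreign nucleic acids and lead back to more interferon, and modulators that amplify or end the signal. Interferon gamma signals above all through another element (GAS). In adipose tissue macrophages, dendritic cells and other immune cells carry this programme, and stromal cells and adipocytes can mount it too.

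Promoter sequences of 30 of the 39 genes were matched by symbol (RefSeq, GRCm38.p6, 250 bases before to 50 bases after the start), leaving Mx1, Mx2, Oas2, Rtp4, Zbp1, Dhx58, Usp18, Parp9 and Parp14. An ISRE core, searched as GAAANNGAAA on both strands (TTTCNNTTTC on the other), occurred in 13 of the 30 (43.3%) and in 487 of 12596 tested genes with a promoter in the table (3.87%). It was present in 9 of 17 effectors, 2 of 4 sensors and modulators and 2 of 9 receptors and IRF or STAT factors. A GAS core, searched as TTCNNNGAA, which reads alike on both strands, occurred in 10 of 30 (33.3%) against 8.34% of the tested genes. The cores overlapped each other in Bst2 and Ifitm3. Bases -160 to -51 from the start are given for Oas3 and Irf1, which rose with MHE, and for 4 effectors with the same ISRE core that did not pass the test, among them Rsad2, which had the most negative change of the 39. Capitals mark ISRE cores, and in Irf1 the GAS core.
Oas3 (chr5:120777710-120777819, minus strand): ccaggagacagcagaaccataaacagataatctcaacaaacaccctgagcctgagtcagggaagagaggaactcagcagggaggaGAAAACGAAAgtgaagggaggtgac
Irf1 (chr11:53769854-53769963, plus strand): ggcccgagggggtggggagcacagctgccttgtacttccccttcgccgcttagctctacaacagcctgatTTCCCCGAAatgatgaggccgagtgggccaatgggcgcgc
Isg15 (chr4:156200869-156200978, minus strand): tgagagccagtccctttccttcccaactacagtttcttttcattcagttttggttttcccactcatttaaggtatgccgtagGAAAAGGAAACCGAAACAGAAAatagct
Ifit1 (chr19:34640729-34640838, plus strand): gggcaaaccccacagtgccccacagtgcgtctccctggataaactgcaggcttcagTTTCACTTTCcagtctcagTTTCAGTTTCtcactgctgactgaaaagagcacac
Ifit3 (chr19:34583369-34583478, plus strand): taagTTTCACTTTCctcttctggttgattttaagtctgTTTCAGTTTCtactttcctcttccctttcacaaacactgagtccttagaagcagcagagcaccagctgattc
Rsad2 (chr12:26456503-26456612, minus strand): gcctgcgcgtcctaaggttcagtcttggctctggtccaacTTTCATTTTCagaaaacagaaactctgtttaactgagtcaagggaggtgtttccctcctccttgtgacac
The Oas3 core begins at -75 and that of Rsad2 at -120, while Isg15 has 3 overlapping cores that begin at -78, -72 and -66. The 13 genes with an ISRE core had a median log2 fold change of 0.49, from -0.84 (Rsad2) to 2.55 (Oas3), and the 17 without had a median of 0.53. A match describes these letters only and is not a measured binding site.

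Of the 39 genes, 4 rose with MHE (10.3%) and none fell: the effectors Oas3 and Mx1, the nucleic acid sensor Zbp1 and the transcription factor Irf1. Among all 16196 genes tested, 3.97% rose and 0.963% fell, 4.93% in all (edgeR quasi-likelihood test, Benjamini-Hochberg adjusted p under 0.05). Another 5 had an adjusted p between 0.05 and 0.1, namely Usp18, Irf9, Irf2 and Stat2, all with positive changes, and Rsad2, with a negative one. The log2 fold change was positive for 31 of 39 genes, against 48.8% of all tested genes, and its median was 0.64, against -0.02 over all tested genes. Both MHE libraries lay above both PBS libraries for 26 of 39 genes (66.7%, against 33.1% of all tested genes) and below them for 4 (10.3%, against 28.9% of all tested genes), where 62% of all tested genes had the groups apart in either direction. Together the 39 genes took 0.227% (95% exact interval 0.225 to 0.229) and 0.229% (0.227 to 0.231) of all counts with MHE, and 0.158% (0.156 to 0.159) and 0.156% (0.155 to 0.157) with PBS. These shares are of raw counts, without the TMM factors used elsewhere, and their intervals cover counting error only. With all libraries, 18 of 39 had an unadjusted p under 0.05 (edgeR), against 28.6% of all tested genes. With either MHE library left out, no gene passed, among the 39 or among all genes tested. The median log2 fold change of the 39 genes was then 0.57 without MHE replicate 1 and 0.62 without MHE replicate 2. Leaving out PBS replicate 1 gave 8 of 39 (20.5%), where 16.5% of all genes tested were called in either direction, and leaving out PBS replicate 2 also gave 8, where 14.6% were called. All calls among the 39 were higher with MHE in both fits. DESeq2, as another test, called 11 of 39 (9 higher and 2 lower), where it called 18.2% of all genes tested.

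**Figure D1:**
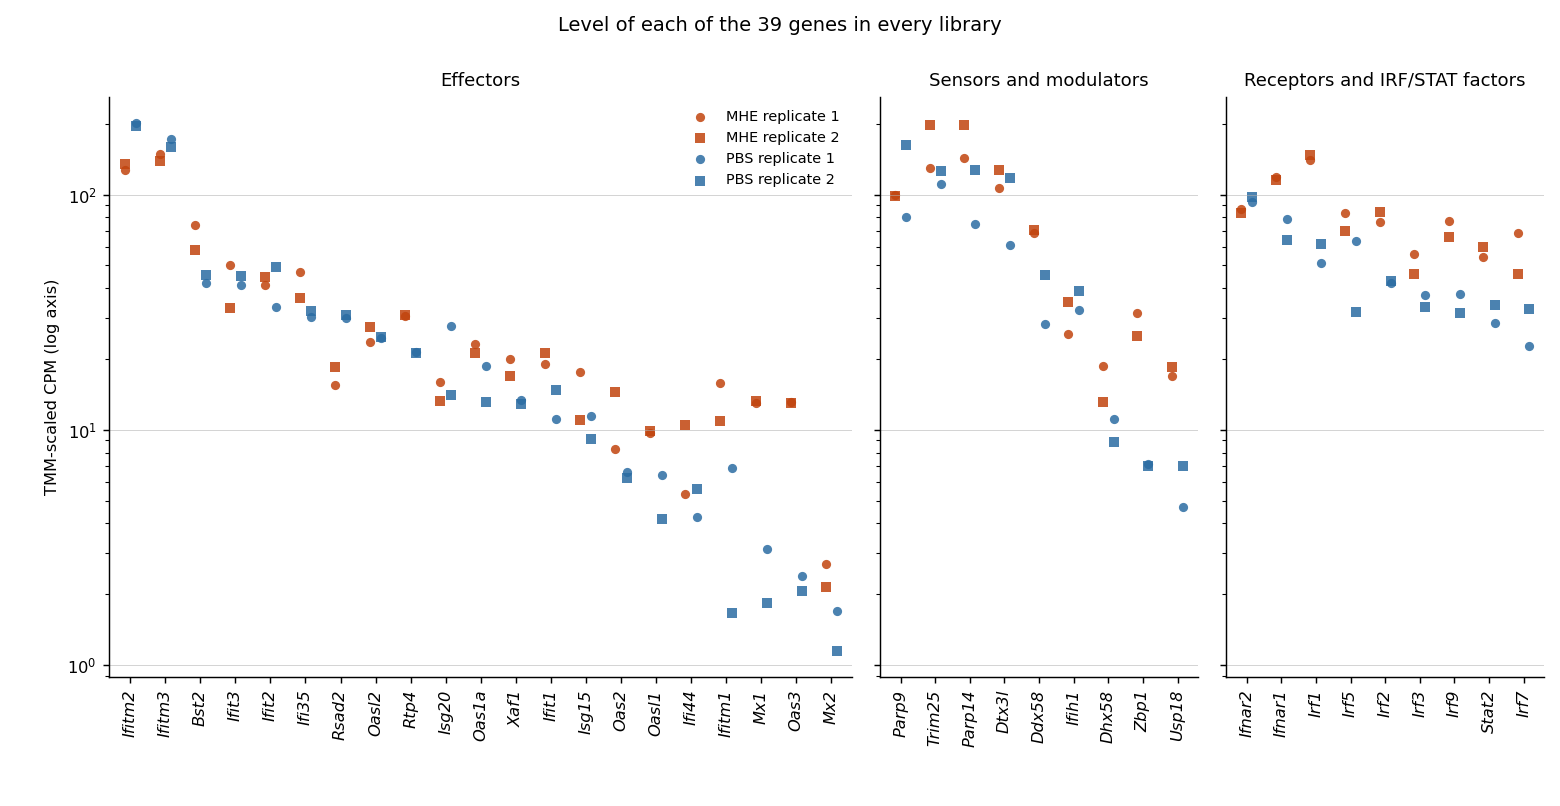
TMM-scaled CPM (log axis) of each gene in every library, by role, with MHE in red left of PBS in blue, circles for replicate 1 and squares for replicate 2. Oas3 and Mx1 stand near 13 CPM in both MHE libraries and under 4 CPM in both PBS libraries, and Rsad2 lies lower in both MHE libraries.

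The effectors divided into a few with large positive changes and many with small ones. Of 21 effectors, 2 rose (9.52%, against 3.97% of all tested genes). A positive change was seen in 16, against 48.8% of all tested genes. The median log2 fold change was 0.49, against -0.02 over all tested genes. Oas3, one of the oligoadenylate synthetases that activate RNase L on double-stranded RNA, stood at 13.1 and 13.0 CPM with MHE and 2.38 and 2.06 CPM with PBS. The groups were far apart and the replicates close, and the log2 fold change was 2.55 ± 0.28 (SE, adjusted p = 0.0242). Mx1, a dynamin-like GTPase that traps viral ribonucleoproteins, had 12.9 and 13.3 CPM with MHE and 3.10 and 1.82 CPM with PBS. Its log2 fold change was 2.41 ± 0.36 (adjusted p = 0.0384). Leaving out single libraries kept Oas3 between 2.46 and 2.64 and Mx1 between 2.09 and 2.83.

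The relatives of these genes did not pass. Oas2 had 8.28 and 14.4 CPM with MHE and 6.64 and 6.22 CPM with PBS (log2 fold change 0.82 ± 0.35, adjusted p = 0.202). Oas1a had 23.2 and 21.2 CPM with MHE, above 18.6 and 13.1 CPM with PBS (0.49 ± 0.25, adjusted p = 0.271), and similar Oas1 copies make its count uncertain. Among the 2 Oas-like genes, which take part in antiviral signalling without all being active synthetases, Oasl1 had 0.89 ± 0.33 (adjusted p = 0.158) and Oasl2 0.05 ± 0.20. Oasl2 was level in all libraries, with 23.6 and 27.5 CPM with MHE and 24.5 and 24.8 CPM with PBS. Mx2, the second Mx GTPase, was the least abundant, at 2.68 and 2.14 CPM with MHE and 1.70 and 1.15 CPM with PBS (0.76 ± 0.49).

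The Ifit proteins, which hold on to foreign RNA and block its translation, showed no common change. Ifit1 had 19.0 and 21.1 CPM with MHE and 11.1 and 14.7 CPM with PBS, with both MHE libraries higher (0.64 ± 0.24, adjusted p = 0.171). Ifit2 had 41.4 and 44.7 CPM with MHE and 33.2 and 49.4 CPM with PBS, where the MHE values lie between the PBS values. Its 95% interval for the log2 fold change, -0.59 to 0.70, leaves out a 2-fold difference either way. Ifit3 had 50.1 and 32.9 CPM with MHE and 41.3 and 44.9 CPM with PBS (-0.05, interval -0.72 to 0.61, and 0.12 under library totals alone), and it has a close copy, Ifit3b, that can share its reads. Both Ifit1 and Ifit3 carry a pair of ISRE cores in the sequences shown above.

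Rsad2 encodes viperin, which makes a chain-terminating nucleotide against RNA viruses. It had 15.5 and 18.5 CPM with MHE and 29.9 and 30.8 CPM with PBS. The MHE libraries were thus both lower, in the opposite direction to Oas3 and Mx1 (-0.84 ± 0.21, adjusted p = 0.082, and called lower by DESeq2 at an adjusted p of 0.0226). Over the fits with a library left out it ranged from -0.96 to -0.70.

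The Ifitm membrane proteins, which hinder viral entry, also pointed in different directions. Ifitm2 had 128 and 134 CPM with MHE and 201 and 195 CPM with PBS, lower in both MHE libraries (-0.60 ± 0.21, adjusted p = 0.153). Ifitm3 had 149 and 139 CPM with MHE and 173 and 160 CPM with PBS (-0.21 ± 0.21, adjusted p = 0.555). Ifitm1 had 15.7 and 10.8 CPM with MHE and 6.86 and 1.66 CPM with PBS, a log2 fold change of 1.64 ± 0.69 (adjusted p = 0.197). Its PBS libraries differed from each other by more than 2-fold, and it passed without PBS replicate 1 (2.99, adjusted p = 0.00174) but not without PBS replicate 2 (0.97, adjusted p = 0.141). Ifitm genes resemble each other, so the authors' counting could divide their reads in ways that cannot be checked here. Of the 39 genes, 17 overlap another gene model.

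Of the other 7 effectors, none passed (edgeR, 2 at an unadjusted p under 0.05) and 6 had positive changes. Over all tested genes, 28.6% had an unadjusted p under 0.05 and 48.8% a positive change. Bst2, or tetherin, which holds budding virions at the cell surface, had 74.4 and 58.0 CPM with MHE and 42.3 and 45.7 CPM with PBS (0.59 ± 0.21, adjusted p = 0.157). Rtp4, a chaperone of receptors that binds viral RNA complexes, had 30.4 and 30.8 CPM with MHE and 21.5 and 21.3 CPM with PBS (0.52 ± 0.19, adjusted p = 0.153), and it overlaps the gene Masp1 on the other strand. The replicates of Rtp4 were close together and the groups apart, yet the difference did not pass. Isg15, the ubiquitin-like modifier, had 17.6 and 11.0 CPM with MHE and 11.5 and 9.12 CPM with PBS, and the groups overlapped (0.48 ± 0.32). Xaf1, a promoter of cell death, Ifi35, a partner of the signalling protein Nmi, and the microtubule-associated Ifi44 had log2 fold changes of 0.49, 0.42 and 0.68 with adjusted p between 0.215 and 0.349. The exonuclease gene Isg20 had 16.01 and 13.3 CPM with MHE and 27.5 and 13.99 CPM with PBS, a change of -0.50 ± 0.37 that was 0.050 without PBS replicate 1.

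**Figure D2:**
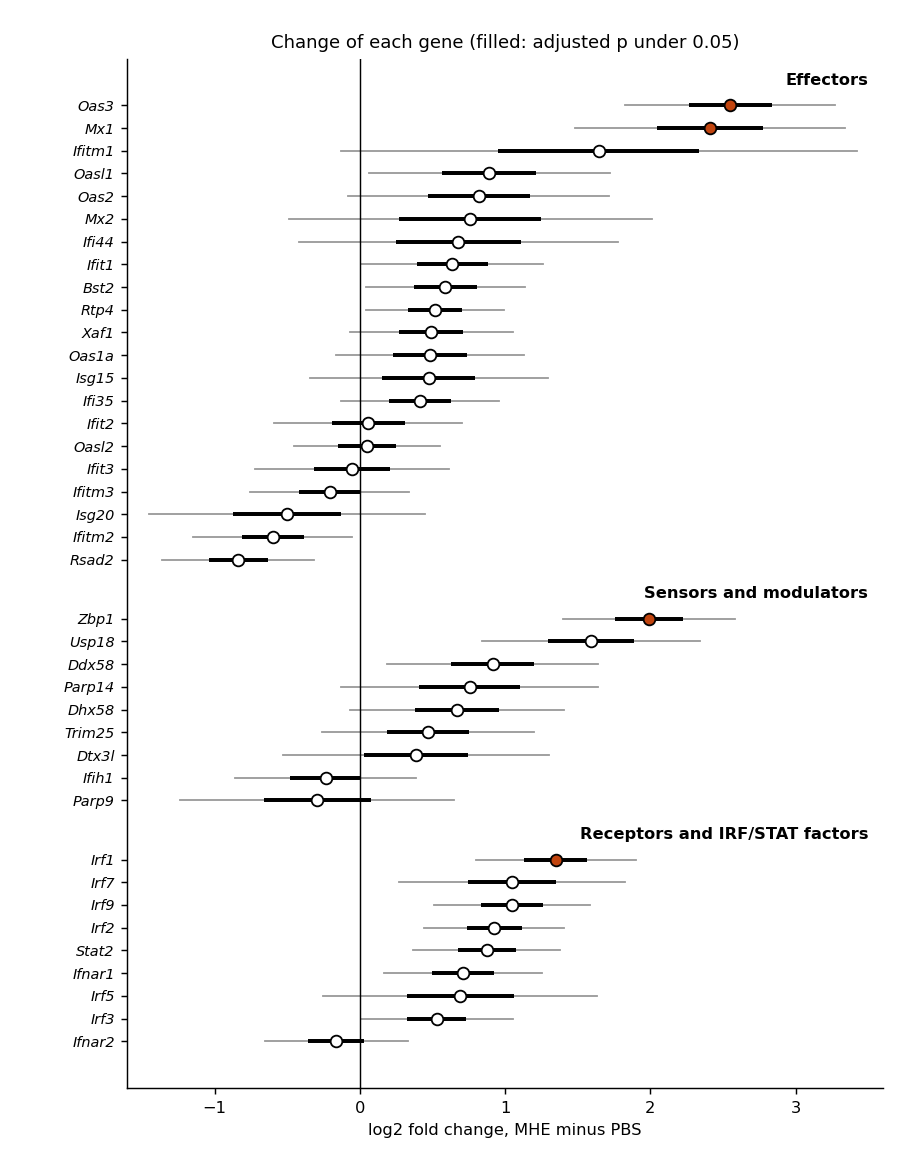
Log2 fold change (MHE minus PBS) of the 39 genes by role. Circles are the estimates, thick bars the SE and thin lines the 95% interval, and filled circles passed an adjusted p of 0.05. Effectors run from -0.84 to 2.55, while receptors and IRF or STAT factors lie between -0.16 and 1.35, where the -0.16 of Ifnar2 is 0.00 under library totals alone.

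Among the 4 nucleic acid sensors, Zbp1 rose. It recognises nucleic acids in the Z form and can start necroptosis. Zbp1 had 31.4 and 25.03 CPM with MHE and 7.18 and 6.996 CPM with PBS, with a wide gap between the groups (log2 fold change 1.99 ± 0.23, adjusted p = 0.0248). Ddx58, which encodes RIG-I, had 68.5 and 70.7 CPM with MHE and 28.0 and 45.7 CPM with PBS (0.92 ± 0.28, adjusted p = 0.124), and passed without PBS replicate 2 (1.32) but not without PBS replicate 1 (0.59, adjusted p = 0.198). Dhx58, a helicase that tunes the related sensors, had 18.7 and 13.1 CPM with MHE and 11.1 and 8.89 CPM with PBS (0.67 ± 0.29, adjusted p = 0.202). Ifih1, the sensor of long double-stranded RNA, had 25.6 and 35.1 CPM with MHE and 32.3 and 39.1 CPM with PBS. Its groups overlapped and its log2 fold change was -0.24 ± 0.24.

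Of the 5 modulators none passed (edgeR, 1 at an unadjusted p under 0.05, 4 positive, median log2 fold change 0.47). Among all tested genes these shares were 28.6% at that unadjusted p and 48.8% positive. Usp18, the protease that strips Isg15 from proteins and blocks the interferon receptor, came nearest, at 16.9 and 18.5 CPM with MHE and 4.69 and 7.03 CPM with PBS (1.59 ± 0.30, adjusted p = 0.0514). It passed with DESeq2, limma-voom, library totals alone, no low-count filter, the stricter filter and the newer quasi-likelihood setting. Trim25, a ubiquitin ligase acting on RIG-I, had 130 and 197 CPM with MHE and 110 and 126 CPM with PBS (0.47 ± 0.29). Parp14, Parp9 and Dtx3l, whose products attach ADP-ribose or ubiquitin, differed widely between the saline libraries. Parp14 had 143 and 198 CPM with MHE and 74.9 and 127 CPM with PBS (0.76 ± 0.35), and it passed without PBS replicate 2 (1.20, adjusted p = 0.0466) but not without PBS replicate 1 (0.41, adjusted p = 0.465). Parp9 had 99.6 and 98.99 CPM with MHE and 80.7 and 163 CPM with PBS (-0.29 ± 0.37, and 0.31 without PBS replicate 2). Dtx3l had 107 and 127 CPM with MHE and 61.1 and 118 CPM with PBS (0.39 ± 0.36, and -0.025 without PBS replicate 1). Parp9 and Dtx3l share 682 bases on opposite strands, and the use of strand in counting is not given in the sources used here.

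The receptor chains, IRFs and Stat2 had log2 fold changes from -0.16 (Ifnar2) to 1.35 (Irf1). Of the 7 IRF and STAT factors, only Irf1 rose. Each of the 7 had both MHE libraries above both PBS libraries, as did 33.1% of all tested genes. The median log2 fold change of the 7 was 0.93. Over all 9 genes of this role, including the receptor chains, 8 were positive, against 48.8% of all tested genes, with a median of 0.87. Irf1, a transcription factor induced by both interferon types and the gene with the GAS core above, had 140 and 147 CPM with MHE and 51.1 and 61.7 CPM with PBS (1.35 ± 0.22, adjusted p = 0.0424). Irf9, the DNA-binding partner of the STATs, had 76.9 and 65.9 CPM with MHE and 37.7 and 31.4 CPM with PBS (1.05 ± 0.21, adjusted p = 0.0584). Stat2 had 54.2 and 60.1 CPM with MHE and 28.6 and 33.8 CPM with PBS (0.87 ± 0.20, adjusted p = 0.0719). Irf2, which competes with Irf1 for its sites, had 76.3 and 84.5 CPM with MHE and 41.9 and 42.7 CPM with PBS (0.93 ± 0.19, adjusted p = 0.0593). DESeq2 called Irf1, Irf2, Irf7, Irf9 and Stat2, all higher with MHE.

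Irf7, which drives the second wave of interferon alpha, had 68.5 and 45.7 CPM with MHE and 22.7 and 32.5 CPM with PBS (1.05 ± 0.30, adjusted p = 0.11, and passed without PBS replicate 2, at 1.34, but not without PBS replicate 1, at 0.80). Irf3, the factor that starts interferon beta transcription, had 56.0 and 46.2 CPM with MHE and 37.6 and 33.3 CPM with PBS (0.53 ± 0.20, adjusted p = 0.172). Irf5, a factor of macrophages and B cells, had 83.7 and 69.7 CPM with MHE and 63.2 and 31.8 CPM with PBS (0.69 ± 0.37, adjusted p = 0.28), and it passed without PBS replicate 1 (1.25) but not without PBS replicate 2 (0.29, adjusted p = 0.602). The receptor chains differed in sign. Ifnar1 had 118 and 115 CPM with MHE and 78.5 and 64.3 CPM with PBS (0.71 ± 0.21, adjusted p = 0.116). Ifnar2 had 87.0 and 83.5 CPM with MHE and 92.7 and 98.2 CPM with PBS, a change of -0.16 that was 0.00 under library totals alone.

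Summed over each role, the 9 receptors and IRF or STAT factors had 761 and 718 CPM with MHE and 454 and 430 CPM with PBS, a ratio of group means of 1.67. The 21 effectors summed to 722 and 679 CPM with MHE and 710 and 691 CPM with PBS, a ratio of 1.00, in which the abundant Ifitm2 and Ifitm3 weigh most. Sensors and modulators had 640 and 784 CPM with MHE and 410 and 641 CPM with PBS, a ratio of 1.35. Roles were compared by these values alone, and the difference between roles was not tested.

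Per length, the order of levels differed between the groups in part. On the scale of CPM per exonic kilobase, Ifitm3 and Ifitm2 were highest in MHE libraries, with means of 212 and 200, and Ifitm2 and Ifitm3 in PBS libraries, with 303 and 245. Bst2 came next in both groups (73.3 with MHE and 48.7 with PBS). Irf1 took place 4 with MHE (35.2 and 37.0 CPM per kilobase) and place 11 with PBS (12.8 and 15.5). Zbp1 took place 25 with MHE (8.89 and 7.09) and place 34 with PBS (2.04 and 1.98). Oas3, the lowest of all 39 with PBS (0.337 and 0.292), remained near the bottom with MHE (1.85 and 1.84, place 37), so its large fold change was between low levels. Adjacent places often differed by less than the replicates: with PBS, Ifih1, Ifitm1 and Oasl2 had means of 4.37, 3.89 and 3.87 while the replicates of Ifitm1 were 6.27 and 1.51.

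Several of the 39 genes sit side by side in family clusters, where neighbours gave different values (GRCm38 coordinates, which mm10 shares). Oas3 (chromosome 5, 120753098 to 120777661) lies between Oas2 (120730333 to 120749853) and the Oas1 genes, and its 2.55 stood beside 0.82 for Oas2 and 0.49 for Oas1a. Further Oas1 copies, named after their values were seen, had 1.47 (Oas1b, adjusted p = 0.0663), 0.48 (Oas1c) and 0.44 (Oas1g). On chromosome 19 the Ifit genes span 99.3 kb. Ifit1bl1 (34592891 to 34601956), a gene of the same family that is not one of the 39, rose by 3.59 ± 0.35 on the log2 scale (37.7 and 34.6 CPM with MHE, 3.86 and 2.16 CPM with PBS, adjusted p = 0.0212). It lies between Ifit3 (34583531 to 34588731), at -0.05 and 0.12 under library totals alone, and Ifit1 (34640871 to 34650009), at 0.64. Mx1 (chromosome 16, 97447035 to 97462907) and Mx2 (97535308 to 97560900) had 2.41 and 0.76. The differences between neighbours were not tested.

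**Figure D3:**
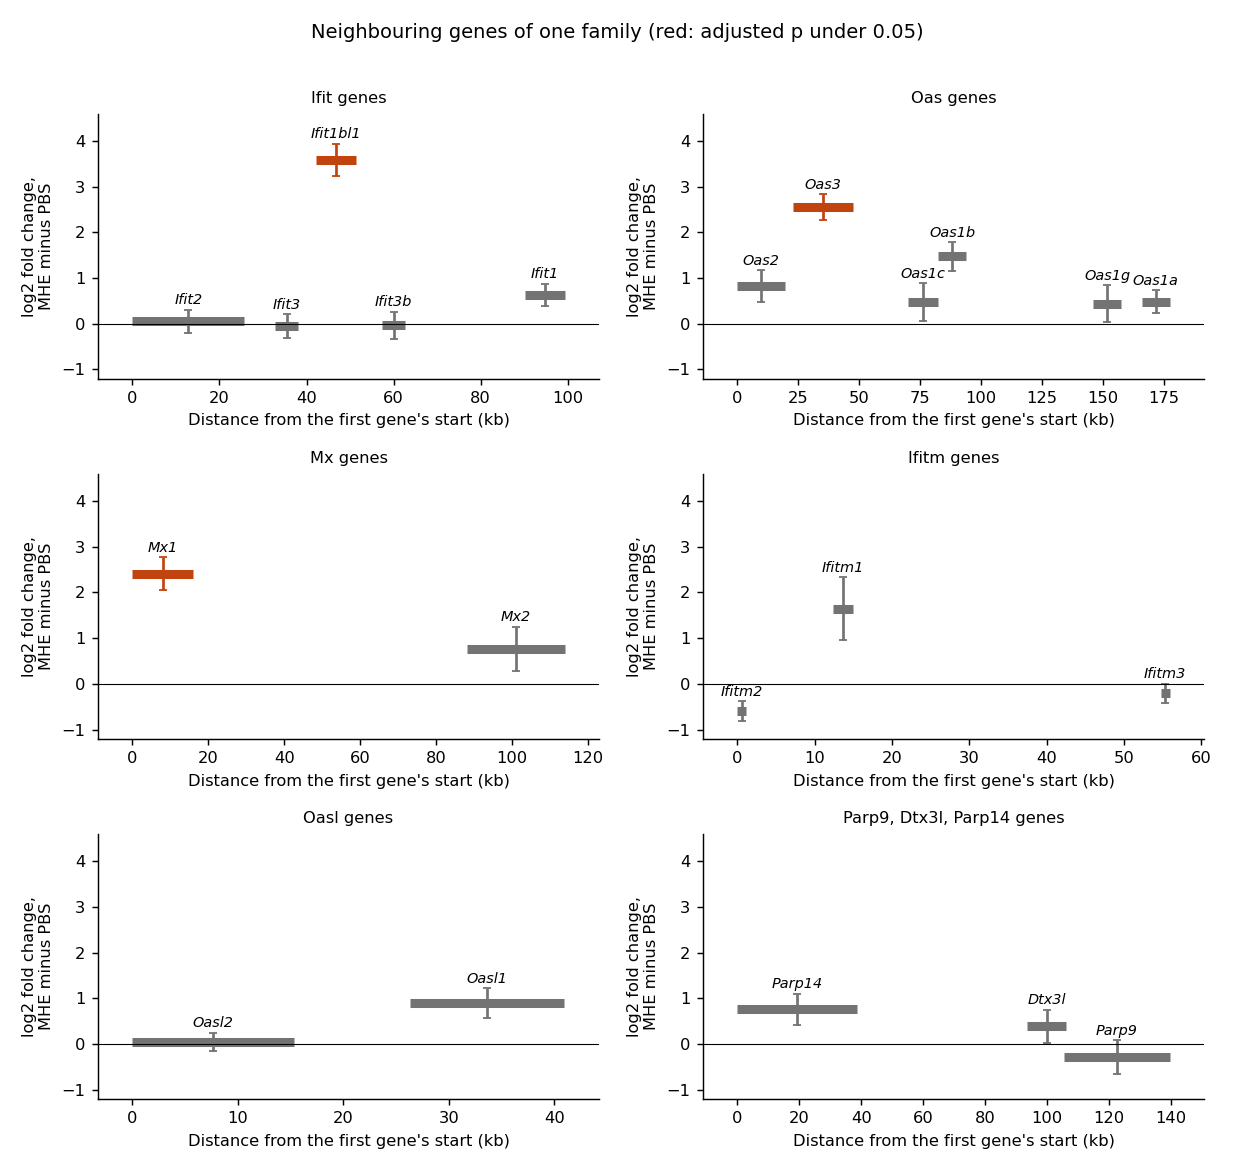
Log2 fold change (MHE minus PBS, vertical axis, with SE) of listed genes that lie in one cluster, drawn to scale as horizontal bars over their distance in kb from the first gene's start. Red genes passed an adjusted p of 0.05: Ifit1bl1, Oas3 and Mx1 stand at 3.59, 2.55 and 2.41, while their neighbours lie between -0.05 and 1.47, with Ifit3 positive (0.12) under library totals alone.

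Few counts were assigned to the interferon genes themselves. Of 21 interferon genes looked up, 18 had 0 counts in all libraries, among them Ifnb1. There 0 counts allow up to 0.0903 to 0.108 CPM per library (3 counts), a bound that covers counting error only. How reads that match several similar interferon genes were counted is not given, so 0 counts need not mean absence. Ifng, the interferon of T and NK cells, had 7 and 23 counts with MHE and 3 and 8 counts with PBS and did not pass the count filter. Only Ifnz, named after its values were seen, passed that filter. It had 21 and 18 counts with MHE and 6 and 0 counts with PBS and was not called (log2 fold change 2.52 ± 1.28, adjusted p = 0.259). Among 12 other receptors, kinases, STATs and IRFs, 3 rose (25%, against 3.97% of all tested genes). Among them were Irf8, a factor of dendritic cells, monocytes and B cells, and Irf4, a factor of lymphocytes and dendritic cells. Irf8 had 227 and 183 CPM with MHE and 48.1 and 24.1 CPM with PBS (log2 fold change 2.51 ± 0.40, adjusted p = 0.0426). Irf4 had 53.6 and 79.4 CPM with MHE and 12.3 and 19.8 CPM with PBS (2.05 ± 0.34, adjusted p = 0.0439).

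Of 16 upstream sensing genes, 4 rose (25%), where 3.97% of all tested genes rose. They include the endosomal DNA sensor Tlr9 (3.12) and the adaptor of cytosolic DNA sensing Sting1 (2.10). The others called were the signalling adaptor Traf3 (1.55) and the RNA-editing enzyme Adar (1.29). Tlr9 had 34.0 and 30.1 CPM with MHE and 4.33 and 3.04 CPM with PBS. Of 32 other type I interferon-stimulated genes tested, 10 rose (31.3%, median log2 fold change 0.62), led in smallest p by Slfn1, a growth regulator of T cells (4.56), Slfn8 (2.06), Ifit1bl1 and Sp110, a nuclear body protein (2.19). Of 22 genes tied above all to interferon gamma, 10 rose (45.5%, median 1.25). With the smallest p among them were the immunity-related GTPase Ifi47 (2.35), the class I transactivator Nlrc5 (2.15), the peptide transporter Tap1 (1.95) and the class II transactivator Ciita (2.84). None of the 8 feedback inhibitors passed (edgeR, 5 at an unadjusted p under 0.05, as 28.6% of all tested genes were). All 8 had positive changes (median 0.95). In these 5 lists no gene was called lower. With either MHE library left out no gene passed, in these lists or among all genes tested.

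**Figure D4:**
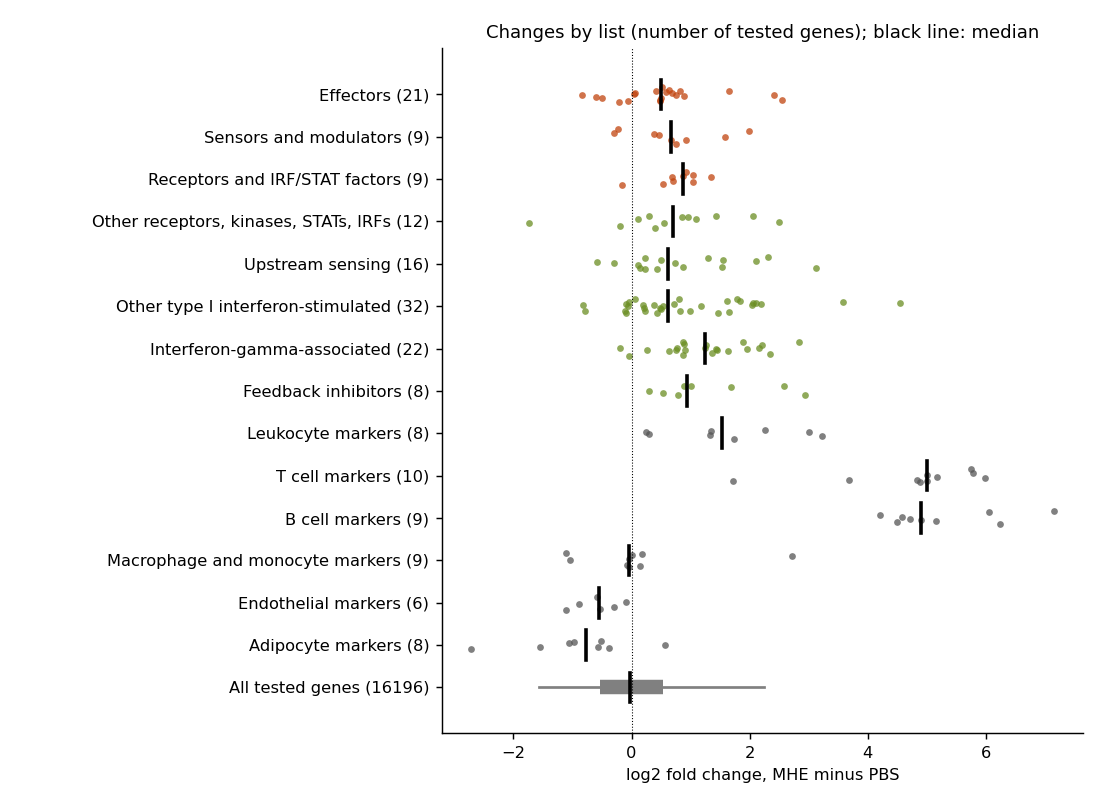
Log2 fold change (MHE minus PBS) by list, with the number of tested genes in brackets. Each point is a gene, black lines are medians, and the grey bar of all tested genes spans the interquartile range with whiskers at the 5th and 95th percentiles. The 3 roles have medians of 0.49, 0.67 and 0.87, against 1.25 for the interferon-gamma-associated list, 5.01 for T cell markers and -0.02 for all tested genes.

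Most T cell markers and some B cell markers rose with the extract beside the genes described, where 3.97% of all tested genes rose. Of 8 pan-leukocyte markers, none passed (edgeR, 5 at an unadjusted p under 0.05, as 28.6% of all tested genes were). All 8 were positive, and their summed level was 3803 and 3241 CPM with MHE and 1802 and 531 CPM with PBS. Ptprc had 514 and 526 CPM with MHE and 95.1 and 34.8 CPM with PBS (log2 fold change 3.0, adjusted p = 0.0508). Of 10 T cell markers 9 rose, with sums of 999 and 859 CPM with MHE and 117 and 25.9 CPM with PBS, and Cd3e, a chain of the T cell receptor complex, had a log2 fold change of 5.01 (5.88 without PBS replicate 1). Of 9 B cell markers 4 rose, with sums of 1970 and 1574 CPM with MHE and 107 and 9.33 CPM with PBS. Of 7 tested markers of plasmacytoid dendritic cells, the main producers of interferon alpha, 2 rose, among them Siglech (45.2 and 19.0 CPM with MHE, 1.66 and 2.43 CPM with PBS). That list also holds Bst2. Macrophage and monocyte markers summed to 617 and 924 CPM with MHE and 1071 and 639 CPM with PBS, with 1 of 9 risen. Of the other lists, 3 of 8 NK cell, 3 of 8 conventional dendritic cell, 3 of 5 lymph node stroma and 1 of 8 adipocyte progenitor markers rose, and 1 of 8 adipocyte markers fell. None of 6 endothelial markers (all negative, 0 at an unadjusted p under 0.05) and none of 3 tested neutrophil markers passed (edgeR). The lymph node stroma list summed to 813 and 478 CPM with MHE and 143 and 14.5 CPM with PBS, and the adipocyte list to 22790 and 17806 CPM with MHE and 31784 and 45086 CPM with PBS. Ly6g of neutrophils and Ccl19 of lymph node stroma had 0 counts in every library, and Glycam1 of lymph node vessels, which rose (adjusted p = 0.0212), had 72.1 and 28.1 CPM with MHE and 2 and 0 counts with PBS. Part of the 39 genes is expressed in these cells, and the markers' part in the changes was not tested.

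The saline libraries differed in their summed marker levels. The summed pan-leukocyte level was 3.39 times as high in PBS replicate 1 as in PBS replicate 2, and the T and B cell sums 4.52 and 11.4 times as high. Over the same pair of libraries, 19 of the 39 genes were higher in PBS replicate 1. The ratio of PBS replicate 1 to PBS replicate 2 was 1.03 for the effector sum and 1.06 for the receptor and IRF or STAT sum. For the sensor and modulator sum it was 0.641. Ifitm1, Irf5, Isg20, Mx1 and Oasl1 were higher in PBS replicate 1, by 2.01, 0.99, 0.97, 0.75 and 0.61 on the log2 scale. Zbp1, Oas3 and Irf2 differed by 0.04, 0.20 and -0.03. Irf1 was lower in PBS replicate 1, at 51.1 against 61.7 CPM in PBS replicate 2. Parp9, Dtx3l and Parp14 were lower in PBS replicate 1. So were the summed endothelial (ratio 0.537), adipocyte progenitor (0.659), adipocyte (0.705) and plasmacytoid dendritic cell (0.775) levels, while all other marker lists summed higher there. A link between these genes and any marker list was not tested. The replicates differed by a median of 0.25 (MHE) and 0.27 (PBS) on the log2 scale over the 39 genes, and by 0.31 and 0.35 over all tested genes.

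**Figure D5:**
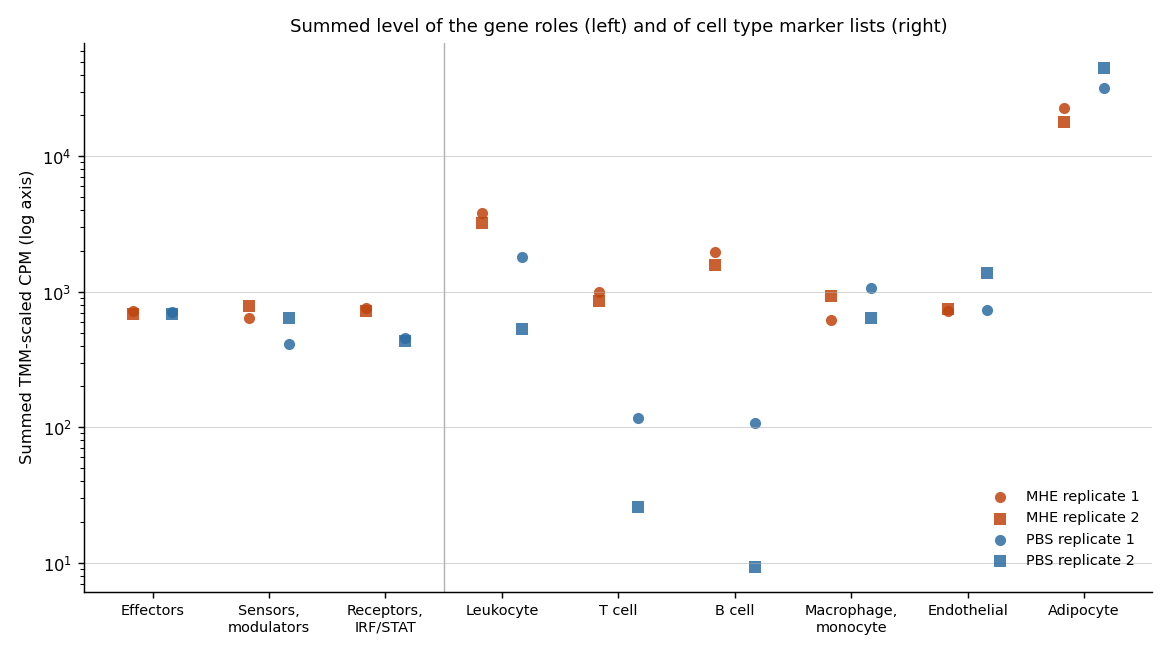
Summed TMM-scaled CPM (log axis) of the 3 roles and of cell type marker lists in every library, with MHE in red left of PBS in blue, circles for replicate 1 and squares for replicate 2. Effector sums coincide between the groups (679 to 722 CPM in all libraries), receptor and IRF or STAT sums are apart, and T and B cell sums differ both between the groups and between the saline libraries.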

How the data were processed

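Trizol was used to extract RNA and Illumina procedures to build libraries, per the labels' protocols. The labels speak of triplicates, and 2 libraries per group were analysed here. The authors deposited raw read counts per gene symbol, not normalized. The mm10 build, TopHat2, edgeR and limma are named, per the submitters' processing notes. Which program counted the reads, and whether by strand, is not given in the sources used here.

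From the counts, edgeR 4.0.16 (R 4.3.3) used filterByExpr (at least 10 counts, total at least 15), TMM factors and a robust quasi-likelihood fit over 16196 genes, with Benjamini-Hochberg adjustment over all of them. Log2 fold changes are MHE minus PBS, and the SE is the change divided by the root of its F statistic. Alternatives used DESeq2 1.42.0, limma-voom (limma 3.58.1), other factors and filters, a replicate block and omission of each library in turn. Exonic lengths and gene positions come from GENCODE M21. On simulated data the procedure recovered 9.6% of 2-fold, 70.8% of 4-fold, 88.2% of 8-fold and 96.2% of 16-fold changes. A 2-fold change was thus mostly missed there. P-values set the difference between the groups against the spread between these libraries, which the fit moderates across genes. An exact permutation of 2 against 2 libraries gives no two-sided p under 0.333. The 39 genes, the lists and the roles were chosen with earlier results of these data known. All 39 may be named, of each pathway list up to 4 called genes with the smallest p, plus preset markers. Every pair of libraries differed beyond sampling noise (chi-square per degree of freedom 141 to 551). A result on 1 gene of the pathway lists is not reported here.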

Additional observations from a re-analysis of the deposited data

How the results depend on the processing

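Among the 39 genes, 7 passed under library totals alone (17.9%) and 11 with DESeq2 (28.2%), against 4 (10.3%). Of all genes tested, 5.85% passed under library totals alone and 18.2% with DESeq2, against 4.93%. For effectors the count was 4 with DESeq2 (19%, near the 18.2% of all genes) and 1 with the replicate block, against 2. The replicate block called 4.76% of effectors and 4.72% of all genes. For sensors and modulators it was 2 in place of 1 under library totals alone, DESeq2, limma-voom, the newer quasi-likelihood setting, no low-count filter and the stricter filter. For receptors and IRF or STAT factors it was 3 under library totals alone (33.3%) and 5 with DESeq2 (55.6%), against 1 (11.1%). Over all genes DESeq2 called 2951 against 799, and in the other pathway lists 42 against 27. Limma-voom called 7% of all genes tested, the newer quasi-likelihood setting 5.88%, no low-count filter 4.18% and the stricter filter 6.61%. Library totals alone moved the median of all tested genes to 0.14, where that of the 39 genes was 0.81, so that the distance between the medians was 0.67 (0.66 with TMM factors). Ifit3 and Ifnar2 then turned to 0.12 and 0.0042. Leaving out single libraries gave 0 to 8 of the 39 genes, 0 to 3 effectors, 0 to 4 sensors and modulators, 0 to 3 receptors and factors, 0 to 2750 of all genes and 0 to 42 pathway genes. Some directions turned there, with ranges of -0.025 to 0.94 (Dtx3l), -0.22 to 0.38 (Ifit2), -0.38 to 0.23 (Ifit3), -0.90 to 0.050 (Isg20), -0.052 to 0.17 (Oasl2) and -0.73 to 0.31 (Parp9). A fit without a library takes the lone sample to vary like the other group. The replicate numbers only name the libraries (correlation of same-number deviations 0.12 over 2 pairs, too few to pair them). With them as a block 3 of 39 passed, and Mx1 had an adjusted p of 0.0502. The cause of these changes was not tested.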
